A study of Mus musculus with 13 samples.

Results

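The nuclear genes of respiratory complex I were examined in mouse retina as the symbols that start with Nduf in the deposited table of nuclear genes. A gene was kept when it was not a -ps symbol and had at least 10 counts in at least 4 of the 13 libraries. Of 29700 nuclear genes 47 carried such a symbol and 43 were kept, namely 33 subunits of the complex, 8 assembly factors (Ndufaf1 to Ndufaf8) and 2 symbols whose products are not counted as complex I subunits (Ndufa4 and Ndufa4l2). The 4 left out were Ndufab1-ps and Ndufb1-ps, and the copies Ndufa11b and Ndufb4c, which had no library with 10 counts. Ndufb1, Ndufb3, Ndufb10 and Ndufb11 were not analysed here. All 43 genes passed the filter on low counts used for testing, so the 43 are at once all members and all members tested.

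RNA came from 1 retina per mouse, with 4 wild type (C57BL/6J) libraries, 4 from Rpe65-/- mice on base diet (vehicle) and 5 from Rpe65-/- mice whose diet held TMB from postnatal day 22. TMB is a mix of tamsulosin, an alpha-adrenergic blocker, metoprolol, a beta-adrenergic blocker, and bromocriptine, a dopamine receptor agonist. The Rpe65-/- retinas were collected at postnatal day 64 and wild type ones at 2 months, and the design text gives the same housing for all. Rpe65 encodes the isomerase of the pigment epithelium that makes visual chromophore, and mice without it lose cones early and rods slowly. Libraries are named by group, sex letter and number. The labels and the count table hold 4 wild type libraries, whereas the design text states 3. The deposited sheet of sample names lists 12 libraries, with no entry for wild type M1, and gives vehicle F1 the genotype C57BL/6J while placing it in the Rpe65-/- vehicle group. Rpe65 had 6 counts in vehicle F1, within the 0 to 8 counts of the 9 Rpe65-/- libraries and below the 72 to 226 counts of wild type.

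Total counts per library ran from 14155121 to 17186113. Rod markers were abundant in every library. Summed cone markers (6 of 6 listed genes in the table) reached 1232 to 1337 CPM in wild type (CPM are counts scaled to the TMM-normalised size of the library), 116 to 170 CPM in vehicle and 105 to 160 CPM in TMB libraries. Summed rod markers (6 of 6) ranged over 51490 to 65880 CPM in the wild type group, 38950 to 48610 CPM in the vehicle group and 40840 to 44620 CPM in the TMB group. Pigment epithelium markers (4 of 5 in the table) were at 26.7 to 51.7, 46.9 to 218 and 52.4 to 75.2 CPM in the same order, and lens markers (2 of 3) at 0.811 to 348, 1.60 to 808 and 2.55 to 57.8 CPM. Their part in the results below was not tested. Vehicle F2, labelled female, had 1 Xist count, against 33580 to 65505 counts in the other libraries labelled female. Wild type F4 stood apart from the other wild type libraries in most genes tested, and values without it are therefore given beside most results. In bulk retina, fewer cells of a type and less RNA per cell cannot be told apart.

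Complex I takes electrons from NADH, passes them to ubiquinone and pumps protons across the inner mitochondrial membrane, so that it is the main entry point of the respiratory chain. Its catalytic core is made of nuclear subunits of the peripheral arm (Ndufv and Ndufs genes) and of the mitochondrially encoded mt-Nd subunits of the membrane arm, and many nuclear accessory subunits surround that core. Assembly factors help to build the complex from preformed modules and are absent from the finished enzyme. Photoreceptors hold dense mitochondria in their inner segments and have a high demand for ATP.

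Promoters are shown for 5 of the 9 genes called below, 3 that fell and 2 that rose, each with a match to a motif of respiratory or housekeeping genes, so that what lies ahead of their starts can be seen beside their values. Sequences are from RefSeq (GRCm38.p6), which held 37 of the 43 genes. Each line gives the 150 bases before the start given there, 5' to 3' on the gene's strand. Capitals mark matches, on either strand, to GCGCANGCG (like the site of NRF1, a regulator of respiratory genes), CCGGAAG (like that of ETS factors such as GABP), GCCATNTTG (like that of YY1) or CCAAT. Ndufaf4 (chr4:24897933-24898082, plus strand), Ndufaf1 (chr2:119662835-119662984, minus strand), Ndufaf2 (chr13:108158626-108158775, minus strand), Ndufa8 (chr2:36049339-36049488, minus strand) and Ndufb7 (chr8:83566608-83566757, plus strand) read as follows.
Ndufaf4: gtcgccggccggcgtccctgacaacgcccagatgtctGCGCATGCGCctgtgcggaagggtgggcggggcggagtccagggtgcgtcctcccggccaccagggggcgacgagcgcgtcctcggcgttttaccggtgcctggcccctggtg
Ndufaf1: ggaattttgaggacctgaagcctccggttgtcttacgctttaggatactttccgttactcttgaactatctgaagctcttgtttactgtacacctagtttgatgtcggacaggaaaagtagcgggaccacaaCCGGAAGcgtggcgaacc
Ndufaf2: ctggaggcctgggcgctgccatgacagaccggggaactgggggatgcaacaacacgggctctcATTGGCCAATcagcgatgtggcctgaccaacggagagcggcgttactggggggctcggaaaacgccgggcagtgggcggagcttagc
Ndufa8: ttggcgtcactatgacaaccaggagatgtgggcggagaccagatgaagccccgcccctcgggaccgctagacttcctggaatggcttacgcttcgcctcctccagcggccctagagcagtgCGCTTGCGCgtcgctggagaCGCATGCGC
Ndufb7: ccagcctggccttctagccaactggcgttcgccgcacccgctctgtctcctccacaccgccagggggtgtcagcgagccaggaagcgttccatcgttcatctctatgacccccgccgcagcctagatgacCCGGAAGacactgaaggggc

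The capitals in Ndufaf4 are overlapping matches to GCGCANGCG on the opposite strands, and Ndufa8 has separate matches that start 29 and 9 bases before its start. Ndufaf1 and Ndufb7 each have CCGGAAG, 18 and 20 bases before the start, and Ndufaf2 has an inverted pair of CCAAT boxes. All these starts are those of RefSeq. In GENCODE M21, used for the other coordinates, the minus-strand Ndufa8 reaches up to 36049406 and Ndufb7 begins at 83566671. By those coordinates the marked matches of Ndufa8 and Ndufb7 lie inside the gene, not ahead of it. Over the whole 300-base windows (250 bases before to 50 after the start), GCGCANGCG was found in 9 of 37 members (24.3%) and in 7.03% of 27025 genes with a promoter entry. CCGGAAG was found in 6 members (16.2%) and in 9.93% of all, GCCATNTTG in 7 members (18.9%) and in 2.90% of all, and CCAAT in 12 members (32.4%) and in 41.1% of all. Base composition of the windows was not matched, and a match is a description of the letters only. NRF1-like matches stood in Ndufaf4, which fell in vehicle retina, and in Ndufa8, which rose, so the motif was found in genes of either direction.

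Levels between genes were compared per kilobase of annotated exon, which depends on all annotated transcripts of a gene. Subunits had a median of 24.1 CPM per kilobase over the 13 libraries, with the lowest at 4.91 for Ndufab1, and assembly factors a median of 10.03, from 3.02 for Ndufaf2 to 17.9 for Ndufaf5. Among the most abundant subunits by this measure were Ndufc2, a membrane subunit of the ND2 module, at 53.9 CPM per kilobase, and Ndufa1, a small X-linked membrane subunit, at 48.8. Ndufa4, now assigned to cytochrome c oxidase (complex IV), exceeded both at 131 CPM per kilobase. Its level was 212, 184, 211 and 198 CPM in wild type M1, M2, F3 and F4, 186, 173, 158 and 190 CPM in vehicle F1, F2, M4 and M5, and 180, 155, 171, 154 and 183 CPM in TMB F1, F3, F4, M5 and M6. All TMB libraries were below all wild type libraries and vehicle overlapped both, and the edgeR quasi-likelihood test with Benjamini-Hochberg adjustment gave adjusted p = 0.093 for vehicle and 0.056 for TMB against wild type. Ndufab1, the mitochondrial acyl carrier protein and the lowest subunit per kilobase, was at 34.3, 35.5, 41.6 and 27.8 CPM in wild type, 27.7, 29.6, 32.8 and 29.2 CPM in vehicle and 37.8, 30.9, 36.4, 36.6 and 39.7 CPM in TMB libraries, in the order of libraries just given, which holds from here on.

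Reads of some members can be shared with copies elsewhere. Of the 50-base sequences of protein-coding transcripts, 37.0% in Ndufb4, 35.8% in Ndufs3, 26.2% in Ndufa12 and 21.7% in Ndufs5 also occur in a gene at another place, and values of these 4 genes are uncertain to that extent. Ndufaf2 overlaps Smim15 and B230220B15Rik, Ndufa2 overlaps Tmco6, Ndufa3 overlaps Tfpt, Ndufa4l2 overlaps Shmt2, Ndufa11 overlaps Vmac, Ndufc2 overlaps Gm16053 and Ndufab1 overlaps Gm44986, and further members also have such neighbours. No source used here gives the strand setting of the counting, so reads of such neighbours cannot be told apart.

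**Figure D1:**
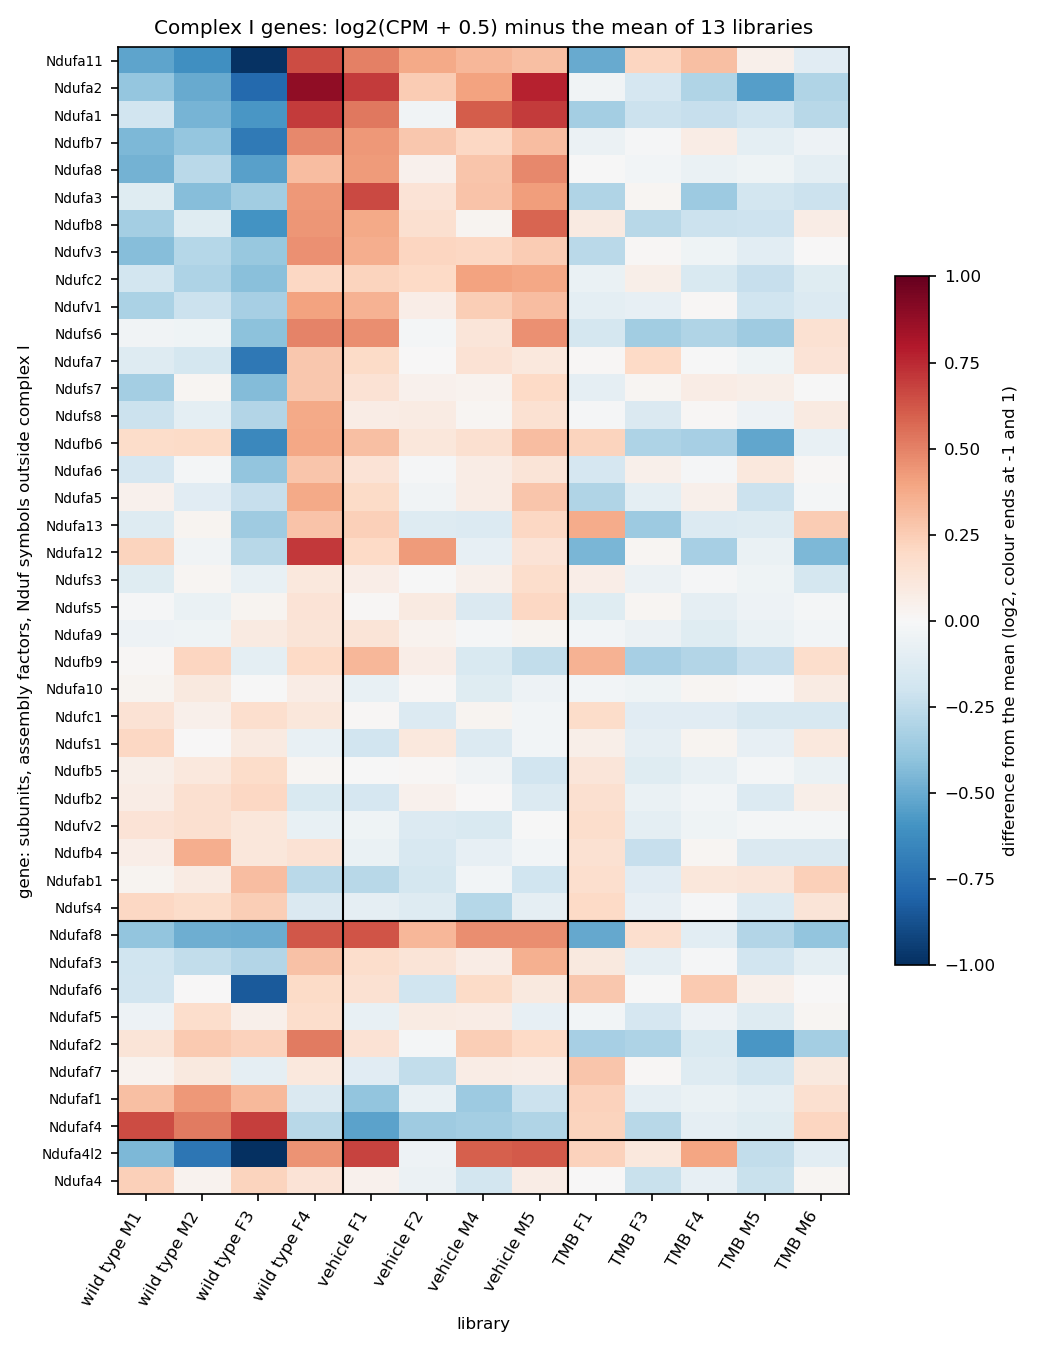
Level of 42 of the 43 genes (rows, by class and then by the change in vehicle without wild type F4) in each of 13 libraries (columns, groups parted by black lines), on the log2(CPM + 0.5) scale after subtracting each gene's mean of the 13 libraries. Wild type M1, M2 and F3 are blue in the upper subunits and red in Ndufaf1 and Ndufaf4, whereas wild type F4 has the colours of the vehicle libraries in most of these genes.

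The first comparison asked how complex I transcripts of the untreated Rpe65-/- retina differ from wild type. In vehicle retina 3 genes fell and 5 rose. Among the genes that fell were the assembly factors Ndufaf4 and Ndufaf1. Those that rose were the accessory subunits Ndufc2, Ndufa8, Ndufb7 and Ndufa3, and Ndufa4l2, a paralog of Ndufa4 that is known as a hypoxia-induced gene. Calls were made with edgeR (quasi-likelihood F test, 1 fit of all 13 libraries, adjusted p under 0.05 over 16782 genes). The 5 higher are 5 of 43 beside 15.7% of all genes tested, and the 3 lower are 3 of 43 beside 18.3% of all. Neither share of members is above its background. The median log2 fold change was 0.09 for the 43 genes and 0.02 for all genes tested. With a GC offset the split was 1 higher beside 7.78% of all genes tested and 6 lower beside 11.6% of all. With DESeq2 size factors it was 3 higher beside 14.8% of all and 4 lower beside 19.1% of all.

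Ndufaf4 (chr4:24898083-24905001, plus strand, GRCm38) acts with Ndufaf3 on an early intermediate of the peripheral arm. It was at 70.3, 63.9, 72.0 and 36.6 CPM in wild type, 30.6, 34.7, 35.1 and 35.9 CPM in vehicle, and 51.9, 36.6, 41.9, 40.8 and 51.8 CPM in TMB libraries. Every vehicle library was below every wild type library, although wild type F4 was only just above the highest of them. Vehicle fell by 0.83 ± 0.18 (log2, SE, 4 against 4 libraries, edgeR adjusted p = 0.0047), and the call held in all 27 alternatives tried, with log2 changes from -1.01 to -0.37.

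Ndufaf1 (chr2:119655446-119662827, minus strand), a factor for the membrane arm, was at 18.1, 19.9, 18.4 and 13.1 CPM in wild type, 10.96, 13.8, 11.2 and 12.5 CPM in vehicle and 17.2, 13.7, 13.95, 13.6 and 16.4 CPM in TMB. Vehicle libraries lay below wild type M1, M2 and F3, and vehicle F2 overlapped wild type F4. The log2 change in vehicle was -0.52 ± 0.14 (SE, edgeR adjusted p = 0.014). In the fit without wild type F4 it was -0.63 ± 0.12 (adjusted p = 0.00029).

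Ndufc2 (chr7:97400003-97407802, plus strand) rose most clearly among the subunits. It was at 35.1, 32.2, 29.8 and 46.3 CPM in wild type, 46.8, 46.0, 53.1 and 52.5 CPM in vehicle and 38.2, 41.7, 35.9, 34.0 and 36.8 CPM in TMB, with a log2 change in vehicle of 0.47 ± 0.12 (SE, edgeR adjusted p = 0.012), and of 0.62 ± 0.09 without wild type F4. Wild type F4 lay among the vehicle libraries, and TMB libraries lay below all of them. Ndufa8, an accessory subunit of the ND1 module that faces the intermembrane space, was at 23.9, 27.6, 22.8 and 41.5 CPM in wild type, 45.2, 34.5, 40.6 and 46.7 CPM in vehicle and 33.3, 32.8, 31.8, 32.4 and 31.3 CPM in TMB. Its log2 change in vehicle was 0.53 ± 0.16 (SE, adjusted p = 0.021 by the same test), and 0.75 ± 0.11 without wild type F4.

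Ndufb7 and Ndufa3, further accessory subunits of the membrane arm, were called close to the threshold. Ndufb7 was at 28.2, 29.5, 23.5 and 54.1 CPM in wild type, 52.3, 46.7, 44.7 and 47.9 CPM in vehicle and 37.1, 38.3, 40.8, 36.0 and 37.4 CPM in TMB (vehicle against wild type, log2 0.50 ± 0.19, edgeR adjusted p = 0.049). Ndufa3 was at 20.97, 16.9, 17.8 and 31.1 CPM in wild type, 36.5, 25.1, 28.0 and 30.6 CPM in vehicle and 18.5, 23.2, 17.7, 20.1 and 19.6 CPM in TMB (log2 0.47 ± 0.17, edgeR adjusted p = 0.048). Wild type F4 lay above all vehicle libraries in Ndufb7 and within their range in Ndufa3, while the other wild type libraries lay below them in both genes. Ndufa4l2 was rare, at 1.24, 0.936, 0.344 and 2.74 CPM in wild type, 3.30, 1.79, 3.09 and 3.14 CPM in vehicle and 2.29, 2.05, 2.63, 1.51 and 1.71 CPM in TMB (log2 1.11 ± 0.41, edgeR adjusted p = 0.048). Leaving out wild type F4 gave log2 changes of 0.83 ± 0.09 for Ndufb7 and 0.70 ± 0.13 for Ndufa3. The calls of these 3 genes were lost in 19 to 20 of the alternatives, with adjusted p up to 0.178 for Ndufb7, 0.170 for Ndufa3 and 0.235 for Ndufa4l2.

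**Figure D2:**
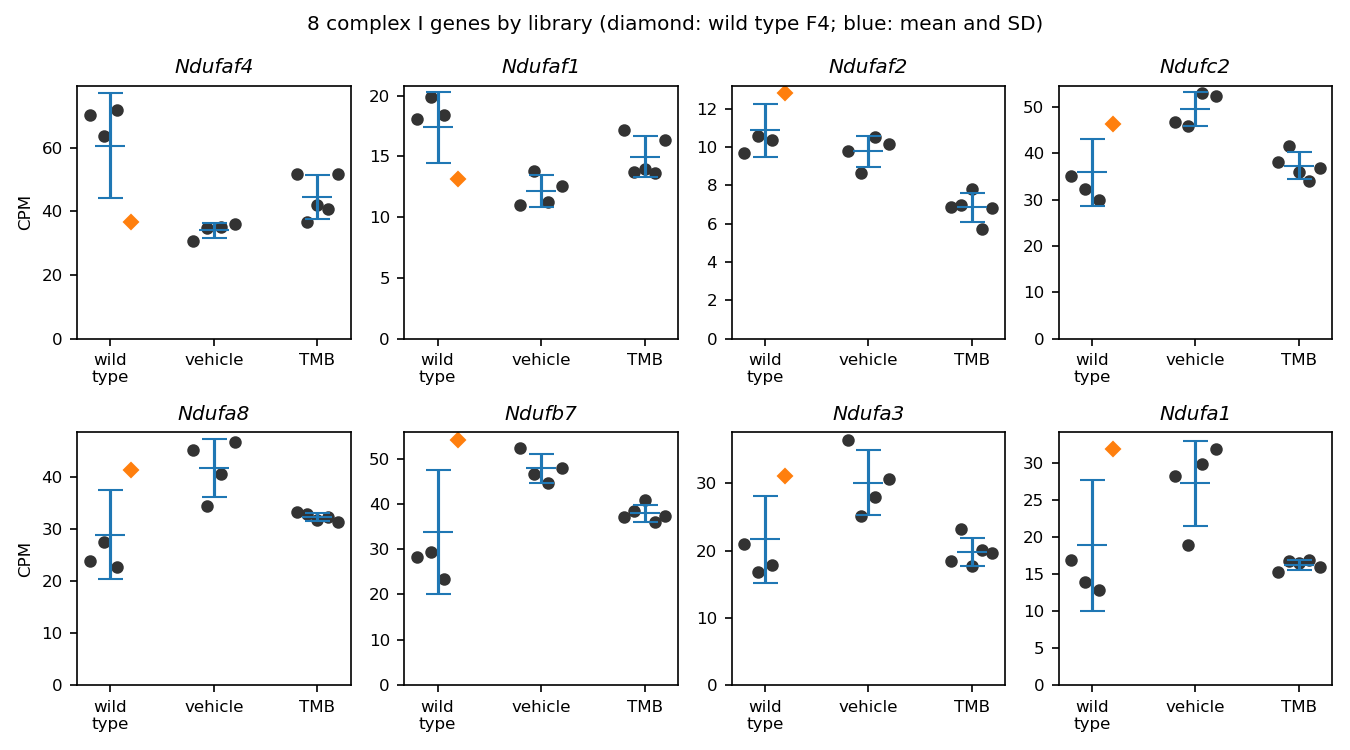
CPM of 8 genes in each library, by group (points, with wild type F4 as an orange diamond), with the group mean and SD in blue. Ndufaf4 and Ndufaf1 are low in vehicle and wild type F4, Ndufaf2 is lowest in TMB, and the other panels show genes that are high in vehicle and wild type F4.

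The number of genes called moved most when wild type F4 was left out, from 8 to 26. For 38 of 43 members (88.4%) it lay outside the range of the other 3 wild type libraries, and for 34 (79.1%) on the side where the vehicle mean lay. Over all genes tested these shares were 78.4% and 70.5%, so the position of this library is not particular to complex I. Across the 43 genes the difference of wild type F4 from the other 3 libraries followed that of the vehicle mean (Pearson r = 0.95, a description across genes that share the same libraries, against 0.71 over 16782 genes). Without wild type F4, 18 members were higher in vehicle beside 28.5% of all genes tested, and 8 were lower beside 27.1% of all. Leaving out wild type M1, M2 or F3, or vehicle F1 or M5, brought the calls from 8 to between 3 and 4, and leaving out vehicle M4 or TMB F3, F4, M5 or M6 brought them to 5. Shares of all genes tested in these fits are not given here, so a change particular to complex I cannot be read from these counts.

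Without wild type F4 the largest rise was that of the rare Ndufa4l2, at 1.76 ± 0.36 on the log2 scale (SE, edgeR adjusted p = 0.00055), followed by accessory subunits and 1 assembly factor. Ndufa11, of the ND4 module, had a log2 change in vehicle of 1.14 ± 0.18 (SE, edgeR without wild type F4, adjusted p = 6.19e-05), with 7.12, 6.68 and 5.02 CPM in wild type M1, M2 and F3, 16.8 CPM in wild type F4 and 13.01 to 15.03 CPM over the vehicle libraries. Ndufa2, of the NADH-binding N module, had 1.12 ± 0.15 (adjusted p = 1.29e-05 in that fit). Ndufaf8, a partner of Ndufaf5 that modifies Ndufs7, had 0.996 ± 0.16 (adjusted p = 8.45e-05), and Ndufa1 had 0.91 ± 0.15 (adjusted p = 9.87e-05). With a GC offset in addition, Ndufa11 had 0.50 ± 0.15, Ndufaf8 0.53 ± 0.14 and Ndufa4l2 0.94 ± 0.34, while Ndufa2 had 0.92 ± 0.14 and Ndufa1 1.003 ± 0.15. Ndufaf4 had the steepest fall without wild type F4 and with no GC offset, by 1.01 ± 0.11 on the log2 scale (adjusted p = 2.95e-06). With the GC offset in addition its change was -0.43 ± 0.08, and it was no longer the steepest. Ndufa13 (-0.60 ± 0.18) and Ndufb4 (-0.51 ± 0.11) fell more in that fit. Ndufa11, Ndufa2 and Ndufaf8 were singled out after their values were seen.

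By role, of 26 accessory subunits 4 were higher and 0 lower in vehicle with all libraries, beside 15.7% of all genes tested called higher and 18.3% lower. At an unadjusted p under 0.05 edgeR gave 10 of the 26, 2 of them lower, with no share of all genes given for that threshold. When wild type F4 was left out, 12 were higher and 4 lower, beside 28.5% and 27.1% of all. Of the nuclear core subunits, Ndufv1, Ndufs7 and Ndufs8 were higher and Ndufv2 was lower (-0.22 ± 0.07, edgeR adjusted p = 0.014) without wild type F4. With the GC offset and no wild type F4, Ndufs7 was lower (-0.40 ± 0.08, adjusted p = 0.0012) and Ndufv2 higher (0.23 ± 0.07, adjusted p = 0.015), and Ndufv1 and Ndufs8 were not called. Ndufv1 carries the NADH site, and Ndufs7 and Ndufs8 carry iron-sulfur clusters. The N module had 5 of 7 accessory members higher and 1 lower without wild type F4. With the GC offset in addition, Ndufa6 (-0.07 ± 0.08) and Ndufs4 (0.03 ± 0.08) of these were not called. Assembly factors split, with Ndufaf4 and Ndufaf1 lower, and without wild type F4 also Ndufaf8 and Ndufaf3 higher. With the GC offset and no wild type F4, Ndufaf3 was not called (-0.06 ± 0.11), whereas Ndufaf5 was called higher (0.23 ± 0.08, edgeR adjusted p = 0.047).

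**Figure D3:**
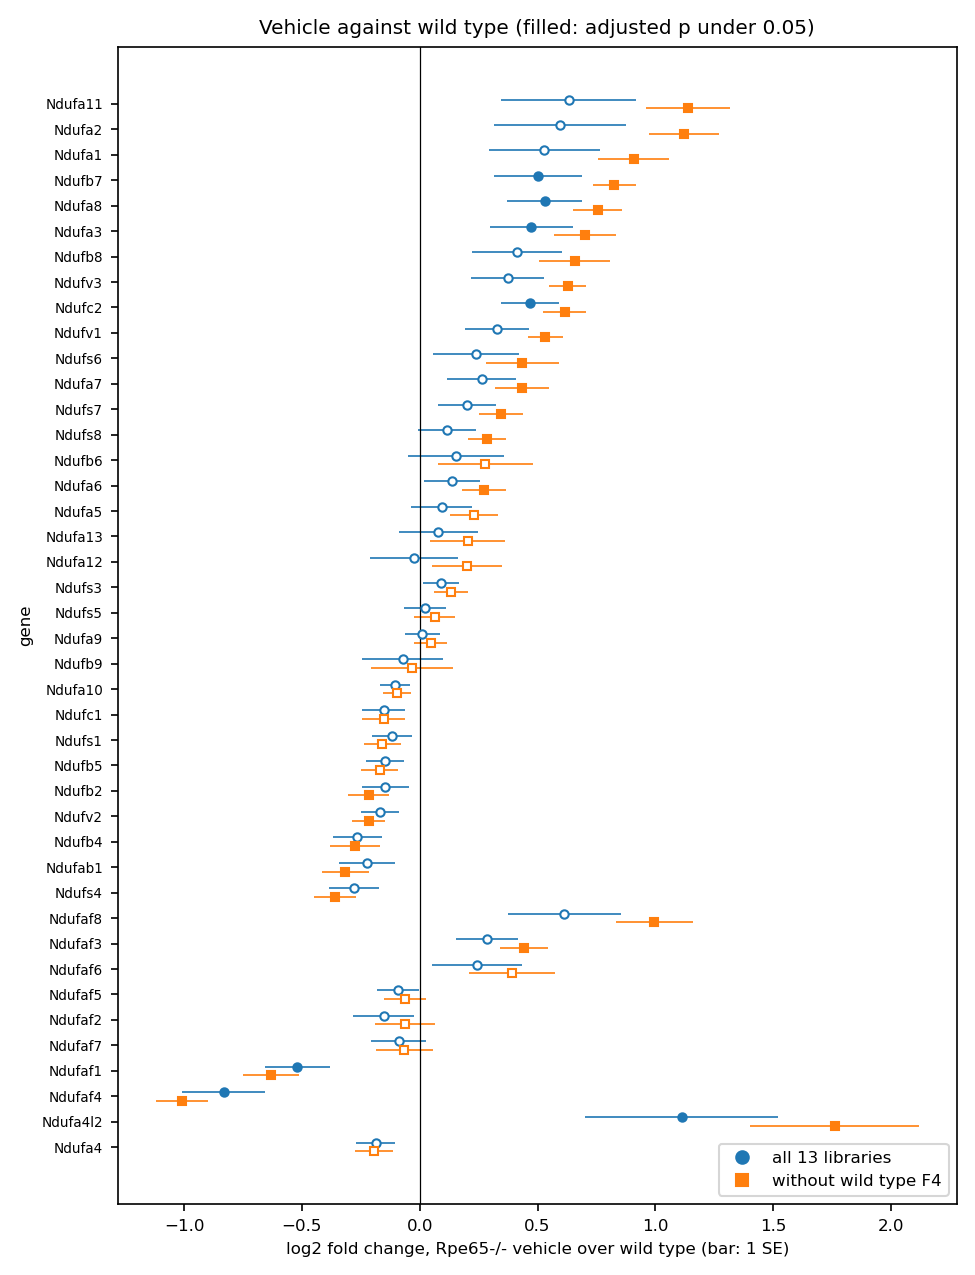
Log2 fold change of vehicle over wild type with its SE for 42 of the 43 genes, from the edgeR fit of all 13 libraries (blue circles) and from the fit without wild type F4 (orange squares), filled where the adjusted p was under 0.05. Filled symbols number 7 with all libraries and 25 without wild type F4, and Ndufaf4 and Ndufaf1 are on the lower side in both.

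Subunits and assembly factors had different medians, with members of either direction in each class, and the difference was not tested. In vehicle against wild type the median log2 change was 0.09 over 33 subunits and -0.09 over 8 assembly factors, and without wild type F4 it was 0.23 and -0.06. In TMB against wild type it was -0.08 and -0.14, and in TMB against vehicle -0.10 and -0.01, beside medians of 0.00 for all genes tested in both. As a description per library, the mean deviation of subunits minus that of assembly factors (log2) was -0.13, -0.16, -0.19 and 0.09 in wild type, 0.18, 0.09, 0.01 and 0.10 in vehicle and -0.05, 0.01, -0.03, 0.07 and 0.00 in TMB. Wild type M1, M2 and F3 were the lowest 3 of the 13 libraries, and TMB libraries lay between them and vehicle F1, with overlap of vehicle. Within groups the median SD of log2 CPM was 0.27 for subunits and 0.27 for assembly factors in wild type, 0.10 and 0.12 in vehicle, and 0.11 and 0.15 in TMB, beside 0.27, 0.15 and 0.16 for all genes tested, so wild type was the most variable group for genes at large as well.

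GC content moved with these results. Subunits had a median GC content of 51.3% (longest transcript), assembly factors 47.5% and all genes tested 49.2%. The median length of that transcript was 1141 bases for subunits, 1482 for assembly factors and 3169 for all genes tested. No fit adjusted for length, and its part in the results was not tested. Across the 43 genes the log2 change in vehicle followed GC content with r = 0.58, and across 16711 tested genes with r = 0.46, both as descriptions across genes. Tested genes in the top quartile of GC deviated by -0.33, -0.28, -0.42 and 0.24 (mean log2) in wild type, 0.28, 0.11, 0.21 and 0.27 in vehicle and -0.16, 0.11, 0.04, -0.01 and -0.06 in TMB. Wild type F4 was again within the range of vehicle. With a GC offset and no wild type F4, a fit added after the data were seen, r across members was -0.09 and 24 members were called in vehicle, 16 higher beside 12.6% of all genes tested and 8 lower beside 15.4% of all. Ndufaf4 and Ndufaf1 were called lower with all libraries and the GC offset as well.

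The second comparison set the TMB-treated Rpe65-/- retina against wild type. Only Ndufaf2 was called, and it was lower. It is 1 of 43 lower beside 5.02% of all genes tested, and 0 of 43 higher beside 4.51% of all. At an unadjusted p under 0.05 edgeR gave 7 members, all 7 lower, and DESeq2 called 3 members, all lower, Ndufaf2 and Ndufa4 among them. The shares of all genes for these counts are not given here. Ndufaf2 (chr13:108002715-108158623, minus strand) is a late assembly factor and a paralog of the N module subunit Ndufa12, which takes its place in the finished complex. It was at 9.67, 10.6, 10.4 and 12.8 CPM in wild type, 9.79, 8.64, 10.5 and 10.2 CPM in vehicle and 6.87, 7.003, 7.83, 5.70 and 6.84 CPM in TMB. All 5 TMB libraries lay below all 8 others. The log2 change against wild type was -0.67 ± 0.13 (SE, edgeR adjusted p = 0.0034), and the call held in all 27 alternatives, with log2 changes from -0.72 to -0.58.

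Ndufa12 itself was at 34.4, 28.7, 24.2 and 48.5 CPM in wild type, 33.8, 39.7, 27.7 and 32.3 CPM in vehicle and 21.3, 29.8, 23.3, 28.1 and 21.4 CPM in TMB. It was low in TMB, with overlap of both other groups, and did not pass the test against wild type (log2 -0.45 ± 0.18, SE, edgeR adjusted p = 0.123). The assembly factors that had fallen in vehicle had values of -0.44 ± 0.16 for Ndufaf4 (edgeR adjusted p = 0.102) and -0.22 ± 0.13 for Ndufaf1 (0.314) in TMB, beside -0.83 and -0.52 in vehicle. Both comparisons share the wild type libraries. Without wild type F4, 8 members were higher in TMB beside 19.6% of all genes tested and 5 lower beside 18.4% of all. Among the lower were Ndufaf4, Ndufaf2, Ndufaf1 and Ndufa4. The higher ones ran from Ndufv1 at 0.19 ± 0.07 (adjusted p = 0.049) to Ndufa4l2 at 1.29 ± 0.35 (adjusted p = 0.0092 by edgeR without wild type F4). Ndufv1 turned with the GC offset, to -0.18 ± 0.06 with all libraries (adjusted p = 0.045) and -0.15 ± 0.06 without wild type F4 (adjusted p = 0.098). In the latter fit Ndufaf4 and Ndufaf2 were still called lower in TMB. Ndufaf1 (-0.24 ± 0.105, edgeR adjusted p = 0.121) and Ndufa4 (0.02 ± 0.08, adjusted p = 0.901) were not called. There Ndufa4 was called higher in vehicle against wild type (0.35 ± 0.08, edgeR adjusted p = 0.0048).

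The third comparison, of TMB with vehicle, does not use wild type values, but its test shares their spread. In the fit of all 13 libraries 0 of 43 members were called beside 0% of all genes tested. At an unadjusted p under 0.05 edgeR gave 16 members, 13 of them lower in TMB. The share of all genes at that threshold is not given here, so these counts have no background beside them. DESeq2 and limma-trend called 0 members. When wild type F4 was left out, 13 members were lower beside 8.02% of all genes tested and 2 were higher beside 8.02% of all. With only the vehicle and TMB libraries in the fit, 13 were lower beside 7.60% of all genes tested and 2 higher beside 7.11% of all. The share lower (13 of 43) thus exceeded the background in both fits, although no test of that excess was made.

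The 13 lower genes comprised 10 accessory subunits, the core subunit Ndufv1 and the assembly factors Ndufaf2 and Ndufaf8. Ndufa2 was at 18.7, 17.2, 14.2 and 46.0 CPM in wild type, 40.4, 29.5, 32.7 and 42.4 CPM in vehicle and 23.97, 21.9, 19.95, 16.7 and 19.9 CPM in TMB (log2 -0.82 ± 0.12 for TMB against vehicle, edgeR without wild type F4, adjusted p = 0.0045). Ndufa1 was at 16.9, 13.9, 12.8 and 31.9 CPM in wild type, 28.2, 18.9, 29.8 and 31.9 CPM in vehicle and 15.2, 16.7, 16.5, 16.8 and 15.9 CPM in TMB (log2 -0.75 ± 0.13, adjusted p = 0.0056 in that fit). Every TMB library was below every vehicle library in both genes, with vehicle F2 the lowest of its group. Ndufaf8 was at 6.03, 5.62, 5.57 and 12.7 CPM in wild type, 12.8, 10.3, 11.3 and 11.3 CPM in vehicle and 5.51, 9.13, 7.47, 6.49 and 6.02 CPM in TMB (log2 -0.72 ± 0.14, adjusted p = 0.0080). The other lower genes were Ndufa3, Ndufaf2, Ndufs6, Ndufa12, Ndufb8, Ndufc2, Ndufa8, Ndufv1, Ndufv3 and Ndufb7, from -0.60 to -0.34 on the log2 scale. The 2 higher genes were Ndufaf4 (0.39 ± 0.10, adjusted p = 0.018) and Ndufab1 (0.28 ± 0.09, adjusted p = 0.041). This set was chosen after its values were seen.

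Counted without a model, all 5 TMB libraries lay below all 4 vehicle libraries in 12 members beside 8.05% of all genes tested, and above all of them in 1 member, Ndufaf4, beside 6.20% of all. The 12 were Ndufa1, Ndufa2, Ndufa3, Ndufa8, Ndufa9, Ndufa11, Ndufb7, Ndufc2, Ndufv1, Ndufv3, Ndufaf2 and Ndufaf8. GC content moved with this comparison too, with r = -0.40 across the 43 genes and -0.54 across 16711 genes. With a GC offset and no wild type F4, 8 members were lower beside 1.36% of all genes tested, and 0 were higher. They were Ndufa1 (log2 -0.80 ± 0.13, edgeR adjusted p = 0.0064), Ndufa2 (-0.75 ± 0.12, 0.0056), Ndufa3, Ndufaf2, Ndufaf8, Ndufc2, Ndufv3 and Ndufa4, the last of which was not among the 13. The GC offset does not adjust for transcript length, which is short in several of them (419 bases in Ndufa1, 572 in Ndufa2) though not in Ndufaf2 (2404). The same number, 8, was found with the GC offset and only these 2 groups, whereas the GC offset with all 13 libraries gave 0. At an unadjusted p under 0.05 the fit with all 13 libraries gave 20 members, with no share of all genes given for that threshold.

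Of the 43 genes 10 were called in none of the 3 comparisons in the fits of all libraries, without wild type F4, with the GC offset and no wild type F4, or with only the groups compared. They were the core subunit Ndufs1, the accessory subunits Ndufa5, Ndufa9, Ndufb5, Ndufb6, Ndufb9, Ndufc1 and Ndufs5, and the assembly factors Ndufaf6 and Ndufaf7. With all libraries their log2 changes over the 3 comparisons ran from -0.42 ± 0.19 (Ndufb6, TMB against vehicle) to 0.30 ± 0.18 (Ndufaf6, TMB against wild type). The share of all genes tested that were called in none of the fits named is not given here.

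**Figure D4:**
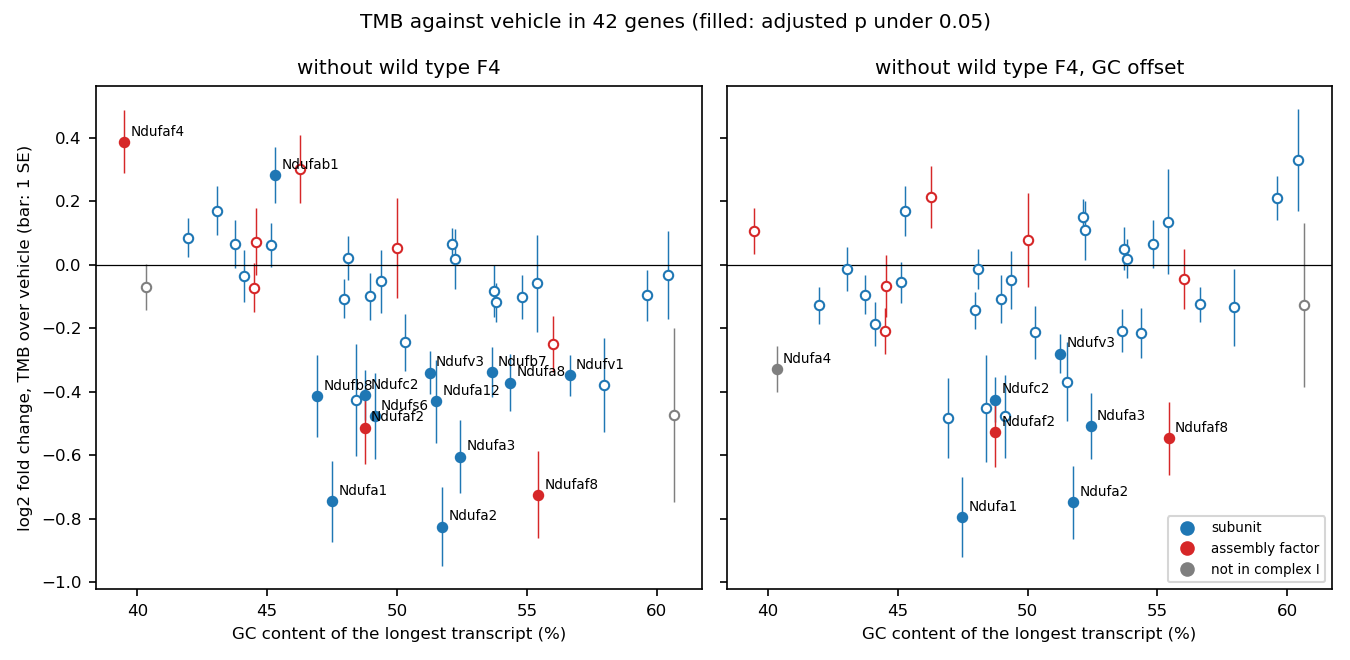
Log2 fold change of TMB over vehicle with its SE for 42 of the 43 genes against the GC content of its longest transcript, without wild type F4 (left) and with a GC offset in addition (right), filled and named where the adjusted p was under 0.05. On the left 15 genes are filled, 13 of them below 0, and on the right 8 are filled, all below 0.

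The mitochondrially encoded subunits were counted in a table of their own, and 15 of its 16 genes were tested, all 7 mt-Nd genes among them. Against the other mitochondrial genes, mt-Nd4l and mt-Nd1 rose and mt-Nd3, mt-Nd5 and mt-Nd6 fell in vehicle, that is 5 of 7 called beside 46.7% of the 15 genes. In TMB against wild type mt-Nd4l and mt-Nd1 rose and mt-Nd3 fell (3 of 7, beside 33.3% of the 15), and in TMB against vehicle 0 of 7 were called by edgeR or DESeq2. The steepest change was in mt-Nd3, a rarely counted gene, at 18.2, 19.8, 17.1 and 9.05 CPM of nuclear counts in wild type, 6.72, 6.11, 4.91 and 5.67 CPM in vehicle and 9.23, 6.30, 9.55, 7.34 and 7.80 CPM in TMB. Its log2 change relative to the other mitochondrial genes was -0.69 ± 0.17 in vehicle (SE, edgeR adjusted p = 0.0099) and -0.61 ± 0.16 in TMB (adjusted p = 0.014). The change of mt-Nd1 and of mt-Nd5 was small, 0.14 ± 0.05 and -0.10 ± 0.04 in vehicle. Without wild type F4 mt-Nd1 was not called (adjusted p = 0.069) and mt-Nd2 was lower in vehicle (-0.22 ± 0.07, adjusted p = 0.017). In DESeq2 the mt-Nd calls were 2 higher and 0 lower in vehicle, and 1 higher and 0 lower in TMB.

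On the scale of nuclear counts the picture was another one, since the whole mitochondrial table took 4.28 to 6.02% of all counts in wild type M1, M2 and F3, 2.84% in wild type F4, 2.69 to 3.70% in vehicle and 3.37 to 4.09% in TMB. Summed mt-Nd counts were 28770, 20190, 24880 and 12340 CPM in wild type, 10730, 15710, 12310 and 11260 CPM in vehicle and 18060, 13440, 15620, 16670 and 18730 CPM in TMB. On this scale 6 of 7 mt-Nd genes were lower and 0 higher in vehicle (all but mt-Nd4l), with log2 changes from -1.45 ± 0.24 for mt-Nd3 to -0.62 ± 0.24 for mt-Nd1, and 13 of the 15 mitochondrial genes were called. In TMB only mt-Nd3 was called, at -0.99 ± 0.22 (edgeR adjusted p = 0.000103). Summed nuclear subunits were at 1657 ± 201 CPM in wild type (SD, n = 4), 1698 ± 67.4 CPM in vehicle (n = 4) and 1568 ± 40.3 CPM in TMB (n = 5), and these ranges overlapped between wild type and both other groups. Wild type F4 had the highest nuclear sum, 1947 CPM, and the lowest mt-Nd sum of wild type.

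**Figure D5:**
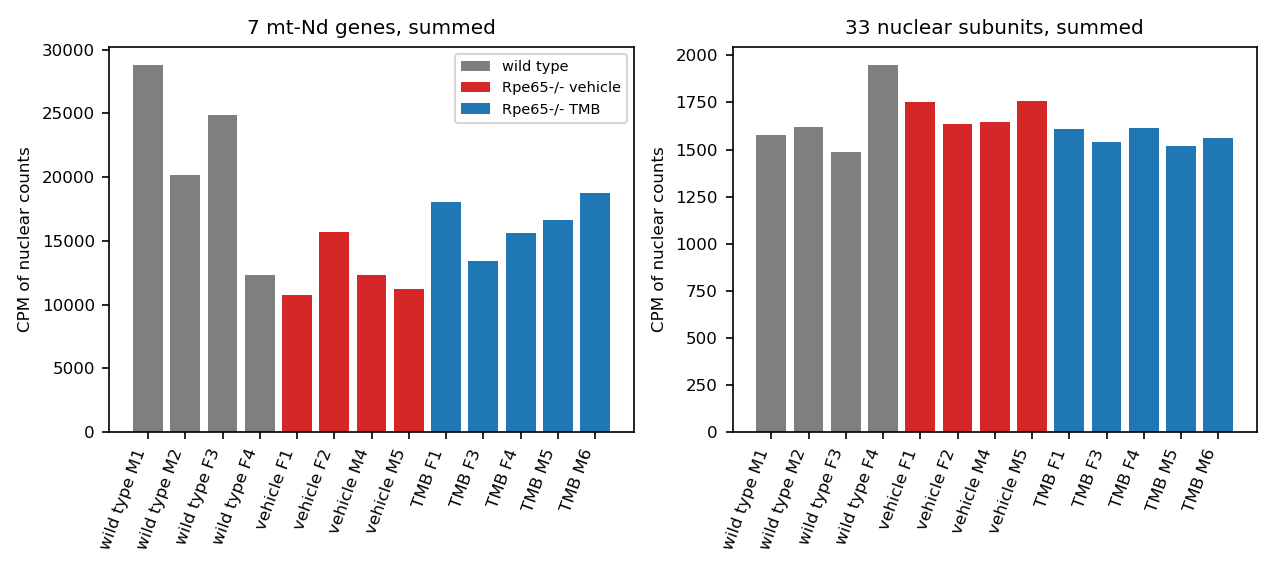
Summed level of the 7 mt-Nd genes (left) and of the 33 nuclear subunits (right) in each library, both in CPM of nuclear counts, with bars coloured by group. The mt-Nd sum runs from 10730 to 28770 CPM and is highest in wild type M1, M2 and F3, whereas the nuclear sum stays between 1489 and 1947 CPM.

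Assembly factors that carry other names moved in both directions as well. Of 12 listed genes 10 were tested, with 2 higher and 3 lower in vehicle and 1 higher and 1 lower in TMB against wild type. Of all genes tested 15.7% were higher and 18.3% lower in vehicle, and 4.51% higher and 5.02% lower in TMB. Tmem126b, a partner of Ndufaf1 in the membrane arm assembly complex, had log2 changes of -0.44 ± 0.11 in vehicle (SE, edgeR adjusted p = 0.0096) and -0.39 ± 0.10 in TMB (adjusted p = 0.026). Acad9, another member of that complex, had 0.30 ± 0.10 in vehicle (adjusted p = 0.033), so genes of one assembly complex changed in opposite directions. Leaving out wild type F4, these log2 changes in vehicle were -0.53 for Tmem126b and 0.39 for Acad9. In that fit 4 genes of the list were higher and 4 lower, beside 28.5% and 27.1% of all genes tested. Tmem70 fell in vehicle and Dmac2 rose in both groups. Of 9 listed regulators of respiratory genes 2 were higher and 5 lower in vehicle, beside 15.7% and 18.3% of all genes tested. In TMB 1 was higher and 1 lower, beside 4.51% and 5.02% of all. Ppargc1b, a coactivator of mitochondrial biogenesis, had log2 changes of 1.05 ± 0.14 in vehicle (adjusted p = 0.00014) and 0.86 ± 0.13 in TMB (adjusted p = 0.00051), whereas its relative Ppargc1a had -0.54 ± 0.14 in vehicle (adjusted p = 0.011). Gabpb1, a subunit of GABP, had -0.42 ± 0.09 in vehicle (adjusted p = 0.0056). In the fit without wild type F4 the changes in vehicle were 1.16 for Ppargc1b, -0.67 for Ppargc1a and -0.51 for Gabpb1. There 2 regulators were higher and 5 lower, beside 28.5% and 27.1% of all genes tested. In TMB against vehicle 0 genes of either list were called by edgeR with all libraries.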

How the data were processed

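RNA from 1 retina per mouse was sequenced after poly(A) selection. Per the methods of the study, the authors trimmed reads with Trimmomatic, aligned them to GRCm38 with STAR and counted them with HTSeq, and the deposited values are raw counts per gene (29700 nuclear and 16 mitochondrial genes, in separate tables). A second, identical set of 4 wild type columns per table was not used, and neither were the authors' own fold changes and p-values. Members and gene lists were chosen with earlier results of these data known.

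Counts were tested in R 4.3.3 with edgeR 4.0.16 (quasi-likelihood F test, TMM, filterByExpr by group, 1 fit of all 13 libraries, no covariate, Benjamini-Hochberg adjustment over 16782 nuclear genes, called at an adjusted p under 0.05). The SE is the absolute log2 change divided by the square root of F. CPM used TMM-scaled nuclear library sizes. Mitochondrial genes were fitted in their own table. Every script that fits many genes was tested on simulated data. Alternatives were DESeq2 1.42.0, limma 3.58.1 (prior count 2), other size factors and filters (none, or a mean count of 100), sex letter, a replicate block, a GC offset, a fold of 1.2, only the 2 groups compared and leaving out each library, and 2 combinations were added after seeing the data. Labels name separate mice, and p-values measure the spread between them.

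Any member could be named by its class. Values in every library were given for up to 4 called subunits and 2 called assembly factors per comparison and direction, the 3 highest and the lowest subunit per kilobase, Ndufa12, Ndufaf2, Ndufa4 and Ndufa4l2, and for others where said. Values of 1 member and 1 marker are not reported here, though both stay in all counts, sums and medians. Exon lengths, GC content and coordinates are from GENCODE M21, whose coordinates were those of the table for 97.2% of genes, and promoters from RefSeq.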

Additional observations from a re-analysis of the deposited data

Results flagged for a closer look

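Ndufa4l2 in vehicle F2 was at 1.79 CPM, apart from the other 3 vehicle libraries at 3.09 to 3.30 CPM, a gap of 0.858 of the group's whole range. It was the only such library among 48 sets of values looked at (13 genes, the 2 class means and the summed mt-Nd level in 3 groups), and chance alone marks about 1 in 20. Vehicle F2 is the library labelled female with 1 Xist count.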

How the results depend on the processing

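For vehicle against wild type, the 8 calls became 13 with limma-trend, 5 with no filter on low counts, 4 with only the 2 groups compared, 1 against a fold of 1.2 and 24 with the GC offset and no wild type F4. Leaving out 1 library gave 3 to 26, the highest without wild type F4. All genes tested moved too, from 15.7% higher and 18.3% lower with all libraries to 28.5% and 27.1% without wild type F4. They were at 12.6% and 15.4% with the GC offset and no wild type F4. For TMB against wild type the 1 call became 3 with DESeq2, 2 with DESeq2 size factors, 6 with the GC offset, 3 with the GC offset and replicate block, 7 with the GC offset and no wild type F4 and 4 with the GC offset and only the 2 groups compared, and leaving out 1 library gave 1 to 13 (2 without TMB F4). For TMB against vehicle the 0 calls became 15 with only the 2 groups compared, 8 with the GC offset and no wild type F4 and 8 with the GC offset and only the 2 groups, and 0 to 15 on leaving out 1 library. Without wild type F4 the shares of all genes tested rose from 4.51% higher and 5.02% lower to 19.6% and 18.4% in TMB against wild type. In TMB against vehicle they rose from 0% to 8.02% higher and 8.02% lower. The swings are thus not particular to complex I genes, and shares for the remaining alternatives are not given here. The cause of these differences was not tested.

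The mt-Nd calls in vehicle, 5 with all libraries, became 2 with DESeq2 and 2 to 5 on leaving out 1 library (2 without wild type M2 or F3, vehicle M4 or TMB M5, 3 without vehicle F1, F2 or M5). In TMB against wild type the 3 became 1 with DESeq2, 1 on the nuclear scale and 1 to 4 on leaving out 1 library (1 without wild type M2). Same-numbered libraries of different groups correlated from -0.171 to 0.252 over 9 pairs, so the numbers were not taken to pair the mice. With the replicate block 2 members were called in vehicle against wild type, 1 in TMB against wild type and 0 in TMB against vehicle, and 0 mt-Nd genes in any comparison.

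Of the genes called with all libraries none changed direction in 27 alternatives. Ndufaf4 and Ndufaf2 were called in 27, Ndufc2 in 25, Ndufaf1 in 23 and Ndufa8 in 16. The median of subunits in vehicle ran from 0.03 to 0.23 and that of assembly factors from -0.12 to 0.08, so the latter has no settled sign. Depth limits Ndufa4l2 most, which had 5 to 56 counts per library and no value with a mean count of at least 100.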

Other observations

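The other complexes of the respiratory chain also had genes called in vehicle against wild type, by edgeR with all libraries. Of 8 tested genes of complex III 2 were higher and 0 lower, and of 10 of complex IV 1 was higher and 1 lower. Of 14 genes of complex V 3 were higher and 3 lower. These counts stand beside 15.7% higher and 18.3% lower of all genes tested. In the fit without wild type F4 the counts were 5 higher and 0 lower for complex III, 6 and 1 for complex IV and 7 and 5 for complex V, beside 28.5% higher and 27.1% lower of all genes tested. Cyc1, the cytochrome c1 subunit of complex III, had a log2 change of 0.53 ± 0.16 (SE, edgeR adjusted p = 0.024), and 0.80 without wild type F4. Atp5g2, which encodes the c ring subunit of ATP synthase, had 0.76 ± 0.16 (adjusted p = 0.0048) and 0.99 without wild type F4, and Atp5l, a membrane subunit of the same complex, had -0.55 ± 0.15 (adjusted p = 0.015) and -0.68 without wild type F4. In TMB against wild type Uqcrb of complex III was lower (-0.60 ± 0.13, adjusted p = 0.0098), Atp5g2 was higher (0.52 ± 0.15, adjusted p = 0.047), and 0 genes of complex IV were called. Of all genes tested 4.51% were higher and 5.02% lower in that comparison. Of 11 tested genes that feed electrons to ubiquinone by other routes, Prodh was higher in vehicle (0.45 ± 0.15, adjusted p = 0.035) and Sdha, the flavoprotein of complex II, was lower in TMB (-0.23 ± 0.07, adjusted p = 0.042). In TMB against vehicle 0 genes of these lists were called with all libraries. Without wild type F4, 4 genes each of complexes III, IV and V and 1 of the other inputs were lower in TMB than in vehicle and 0 were higher, beside 8.02% lower and 8.02% higher of all genes tested.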
